A study of Mus musculus with 11 samples.

Results

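The olfactory and vomeronasal receptor genes were examined here in mouse ovarian granulosa cells. They were chosen by name, as every gene ID of the deposited H3K4me3 count table whose mouse symbol begins with Olfr, Vmn1r or Vmn2r. This gave 1479 gene windows of 24541 in the table, made up of 1120 Olfr, 232 Vmn1r and 127 Vmn2r genes. A window is the stretch of genome in which reads were counted for 1 gene, and its position and length are not stated in any label or table header used here. Granulosa cells are the hormone-producing cells that line the ovarian follicle. They came from C57BL/6 mice, either untreated (0 h) or 48 h after equine chorionic gonadotropin (eCG), a hormone with FSH activity that the labels also call FSH. H3K4me3 was measured by chromatin immunoprecipitation and sequencing in 2 libraries at 0 h and 2 at 48 h. RNA was sequenced in 3 and 3 libraries from mice labelled as postnatal day 21, with cells collected by puncture of follicles. The series design calls the libraries of a group biological replicates. No untreated group at 48 h is in the series, so eCG and elapsed time cannot be told apart, and the 1 input DNA library was not used here.

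Olfactory receptors are G protein-coupled receptors that bind odorants. Class I receptors were first described in fish, class II receptors make up most of the family in land animals, and each olfactory neuron transcribes a single receptor allele while the others are held silent. Vomeronasal receptors of the V1R family (Vmn1r genes) and the V2R family (Vmn2r genes, with a long extracellular domain encoded by several exons) detect pheromones and other social cues. The genes lie in large clusters, and no mark of closed chromatin was measured here. H3K4me3 is the trimethylated form of lysine 4 on histone H3 and marks the start sites of active genes, and of many CpG-rich starts whether or not they are transcribed, so windows of silent, CpG-poor genes show the level that this assay gives with little or no mark.

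The promoter sequences of the windows are shown first, because their base composition sets them apart from most mouse promoters. RefSeq promoters of 300 bases, from 250 before to 50 after the start (build GRCm38.p6), were matched for 1262 of the 1479 genes. Median GC content was 35.7% in the 1267 receptor promoters and 52.7% in all 32851 promoters. The median number of CpG dinucleotides was 1 against 7, and 3 receptor promoters (0.237%) held 10 or more, against 43.5% of all promoters. The sequences below are the 4 best-marked windows with a promoter in the table, the pair Vmn1r246 and Vmn1r256, whose promoters differ at 0 bases, and the pair of windows nearest the median level. Each is printed 5′ to 3′ on the gene's strand with CpG dinucleotides in capitals. The level beside each is the mean H3K4me3 level of its window in CPM, its reads as parts per 1000000 counts of a library after TMM scaling, a correction for library composition.
Vmn2r9 (chr5:108852461-108852760, minus strand, mean H3K4me3 level 18.6 CPM): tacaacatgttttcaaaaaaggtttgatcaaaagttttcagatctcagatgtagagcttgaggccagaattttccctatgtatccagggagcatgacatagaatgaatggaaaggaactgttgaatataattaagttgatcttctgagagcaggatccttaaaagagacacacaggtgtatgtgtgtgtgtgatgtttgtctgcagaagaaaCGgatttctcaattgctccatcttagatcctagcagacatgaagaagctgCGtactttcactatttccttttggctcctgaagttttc
Vmn2r29 (chr7:7278240-7278539, minus strand, 13.0 CPM): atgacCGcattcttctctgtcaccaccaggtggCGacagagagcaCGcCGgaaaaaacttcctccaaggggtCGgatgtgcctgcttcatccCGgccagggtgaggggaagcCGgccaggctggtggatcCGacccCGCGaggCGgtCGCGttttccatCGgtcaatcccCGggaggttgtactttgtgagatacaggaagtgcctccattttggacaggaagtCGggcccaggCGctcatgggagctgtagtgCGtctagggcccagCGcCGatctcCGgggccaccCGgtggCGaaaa
Olfr94 (chr17:37197917-37198216, minus strand, 7.45 CPM): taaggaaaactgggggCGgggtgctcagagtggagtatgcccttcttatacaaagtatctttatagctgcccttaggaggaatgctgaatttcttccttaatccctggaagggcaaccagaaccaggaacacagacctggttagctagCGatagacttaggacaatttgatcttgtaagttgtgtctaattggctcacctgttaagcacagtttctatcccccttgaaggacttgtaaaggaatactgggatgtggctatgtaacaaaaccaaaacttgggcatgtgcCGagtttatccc
Vmn1r158 (chr7:22790733-22791032, minus strand, 5.42 CPM): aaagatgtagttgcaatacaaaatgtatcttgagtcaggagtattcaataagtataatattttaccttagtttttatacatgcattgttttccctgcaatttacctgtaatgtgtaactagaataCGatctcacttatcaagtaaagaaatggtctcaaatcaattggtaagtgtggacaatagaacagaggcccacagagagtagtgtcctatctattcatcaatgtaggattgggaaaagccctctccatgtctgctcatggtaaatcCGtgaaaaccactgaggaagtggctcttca
Vmn1r246 (chr7:20576192-20576491, minus strand) and Vmn1r256 (chr7:22565294-22565593, minus strand), each at 5.02 CPM: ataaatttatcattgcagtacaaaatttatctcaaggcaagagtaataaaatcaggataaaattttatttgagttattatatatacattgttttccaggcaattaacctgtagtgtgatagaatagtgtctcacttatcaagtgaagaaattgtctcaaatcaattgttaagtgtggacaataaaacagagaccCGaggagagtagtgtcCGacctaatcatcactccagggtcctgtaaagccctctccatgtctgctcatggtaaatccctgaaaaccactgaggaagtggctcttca
Olfr1338 (chr4:118754487-118754786, minus strand, 1.54 CPM): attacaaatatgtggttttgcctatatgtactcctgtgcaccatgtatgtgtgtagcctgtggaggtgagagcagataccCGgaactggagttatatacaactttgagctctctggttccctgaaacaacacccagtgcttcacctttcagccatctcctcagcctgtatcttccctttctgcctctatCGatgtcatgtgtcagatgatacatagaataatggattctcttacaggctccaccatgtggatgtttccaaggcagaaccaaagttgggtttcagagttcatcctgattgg
Olfr703 (chr7:106844363-106844662, plus strand, 1.55 CPM): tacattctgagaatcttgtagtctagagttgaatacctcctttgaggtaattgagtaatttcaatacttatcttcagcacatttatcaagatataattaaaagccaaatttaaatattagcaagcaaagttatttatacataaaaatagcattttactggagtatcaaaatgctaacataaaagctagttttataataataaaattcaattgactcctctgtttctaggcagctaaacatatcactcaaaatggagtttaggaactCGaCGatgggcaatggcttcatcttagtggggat

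Vmn2r29 stood out among these with 23 CpG dinucleotides and a GC content of 62.3%, while the other 6 sequences held 2 or 3 CpG dinucleotides. A second RefSeq start of Vmn2r29 (chr7:7247279-7247578) held 0. The other receptor promoters with 10 or more CpG dinucleotides were those of Olfr212 (13, window at 4.46 CPM) and Olfr750 (11, window at 2.56 CPM). The TATA box letters TATAAA, searched on both strands, were found in 39.6% of receptor promoters and 13.6% of all promoters. TAATTA, the core of many homeodomain sites, was found in 16.6% against 5.29%. The GC box letters GGGCGG were found in 0.789% against 35.7%, and the palindromic consensus of the EBF (O/E) factors in 0.395% against 0.904%. None of these shares was adjusted for the lower GC content of receptor promoters. They therefore do not show whether matches are more or fewer than base composition gives. A match is only a run of letters and not evidence of binding.

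Receptor windows carried few reads, and their levels lay in a narrow range. The mean over the 4 H3K4me3 libraries had a median of 1.54 CPM and quartiles of 1.33 and 1.93 CPM over the 1479 windows, between a minimum of 0.782 and a maximum of 54.6 CPM. Every receptor window had at least 1 read in every library, and the median window held 29 and 19 reads in the 0 h libraries and 25 and 25 in the 48 h libraries. At these counts, counting error alone is an SD of 18.6% to 22.9% for one window in one library. Levels of 5 CPM or more were reached by 9 receptor windows (0.609%), against 14698 of all 24541 windows (59.9%).

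Windows of other genes with no RNA gave a like median with a longer upper tail. The 3734 other gene IDs at 0 RNA counts in all 6 RNA libraries had a median of 1.56 CPM and quartiles of 1.28 and 2.39 CPM, and 469 of them (12.6%) reached 5 CPM. The 99th percentile of the receptor windows was 4.54 CPM. It was exceeded by 12.9% of these RNA-silent windows and by 96.5% of the 10068 other windows whose genes had at least 10 CPM of RNA. Other families used in specialised cells were close to the receptors, with medians of 1.37 CPM for 38 taste receptors, 1.43 CPM for 15 trace amine receptors, 1.32 CPM for 54 keratin-associated proteins and 1.61 CPM for 43 beta-defensins.

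**Figure D1:**
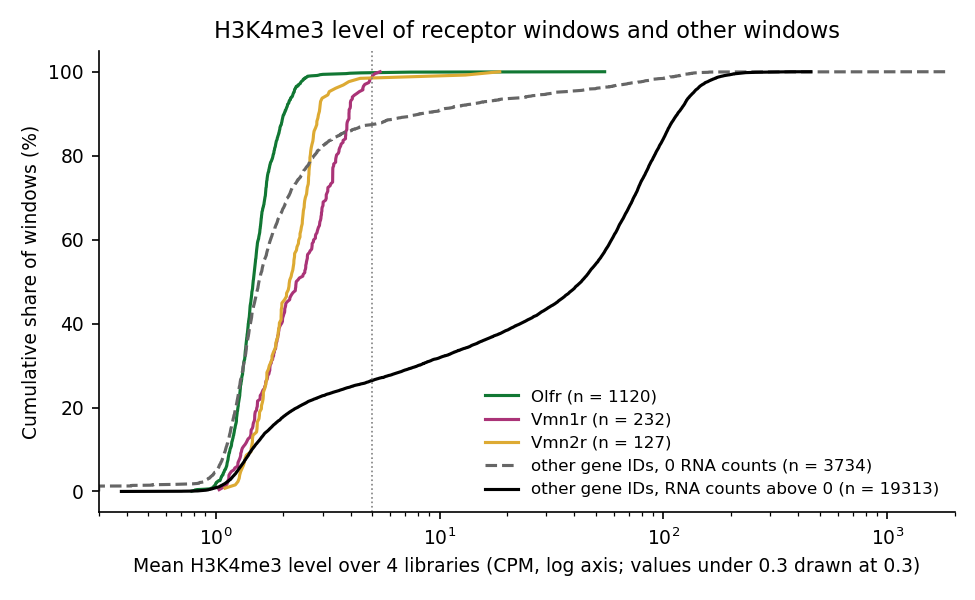
Cumulative share of windows (y axis, percent) at or below each mean H3K4me3 level over the 4 libraries (x axis, CPM, log scale), for the 3 receptor families and for other gene IDs with and without RNA counts. The dotted line marks 5 CPM, which 9 of the 1479 receptor windows reached, and the Vmn1r and Vmn2r curves lie to the right of the Olfr curve.

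Olfr windows had a median of 1.47 CPM (quartiles 1.29 and 1.70), Vmn1r windows 2.31 CPM (1.67 and 3.33) and Vmn2r windows 2.14 CPM (1.67 and 2.60). By the family numbers among RefSeq synonyms, 125 Olfr genes were class I, with a median of 1.38 CPM, and 972 were class II, with a median of 1.48 CPM. Gene length is a median of 951 bp in Olfr, 924 bp in Vmn1r and 24544 bp in Vmn2r genes. Spearman's rho between CPM and gene length was -0.03 over the 1479 windows, which share the 4 libraries. Promoter CpG count gave a rho of 0.08 and promoter GC content 0.05 over the 1262 matched genes. As a gauge of what is repeatable at this depth, rho between both 0 h libraries was 0.57 over all receptor windows and 0.36 over Olfr windows alone, and between both 48 h libraries 0.54 and 0.39.

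Most of the higher receptor windows lay in 1 gene cluster. Receptor genes less than 1 Mb apart were joined into clusters, and 22 clusters held 20 or more receptors, 1250 in all. Their median levels ran from 1.33 to 3.53 CPM, with the next highest at 2.44 CPM. The highest was a run of 87 Vmn1r genes on chromosome 7 (20101158 to 24055691, 3.95 Mb, GRCm38.p6), with quartiles of 3.11 and 3.94 CPM and a range of 2.03 to 5.42 CPM. It held 67 of the 91 receptor windows at 3 CPM or more. The 145 Vmn1r windows elsewhere had a median of 1.80 CPM. Inside the cluster's stretch, 13 other gene IDs whose symbols do not name a receptor had a median of 3.13 CPM. Among these, Gm10670 and Gm10665 had the same level, 4.37 CPM. Whether such IDs share sequence with the receptor genes was not tested.

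**Figure D2:**
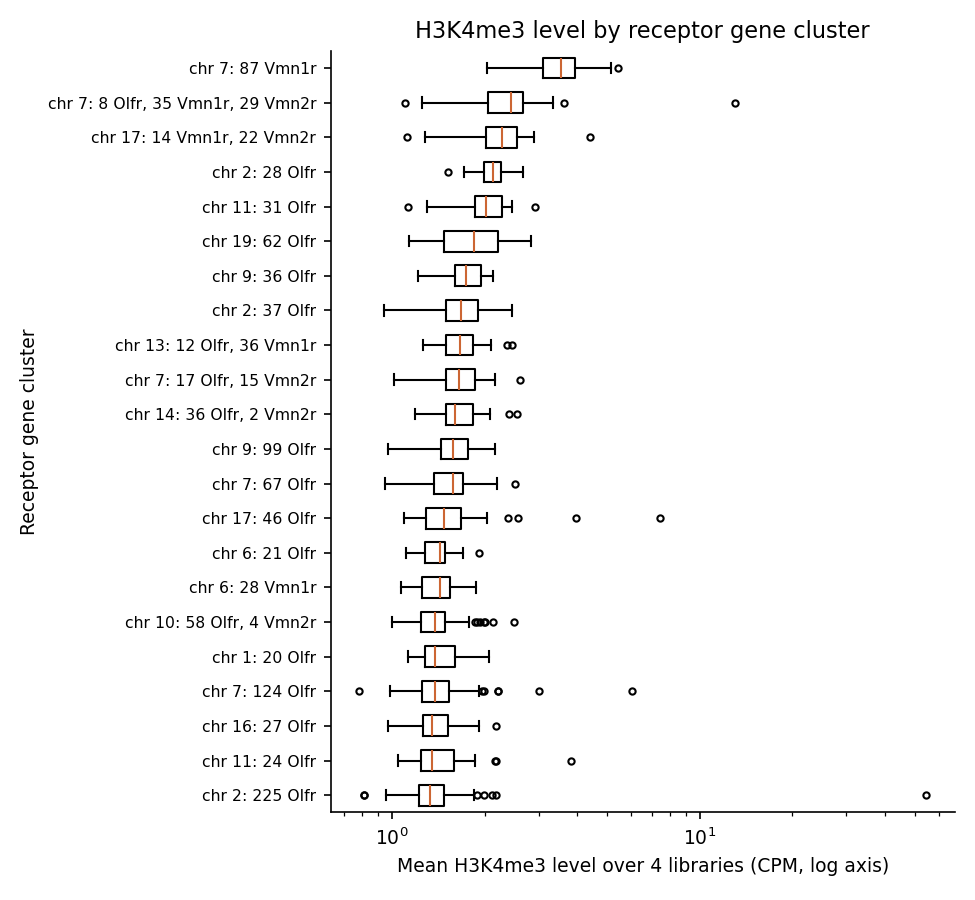
Mean H3K4me3 level of receptor windows (x axis, CPM, log scale) in the 22 clusters of 20 or more receptor genes (y axis, named by chromosome and number of genes of each family), as box plots with the median in orange, quartiles as the box, whiskers to 1.5 times the box's width and points beyond. The chromosome 7 cluster of 87 Vmn1r genes lies highest, with a median of 3.53 CPM, and single points mark windows far above their cluster, such as Olfr1033 at 54.6 CPM.

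Many windows of that cluster could not be told apart. In all 4 libraries the counts were identical between 2 or more receptor windows in 20 groups, which held 46 windows, 40 of them in the cluster. Vmn1r111, Vmn1r131, Vmn1r138 and Vmn1r166, which span 2.55 Mb, each had 76, 51, 50 and 65 reads in the 4 libraries. In 16 of the 20 groups the members also shared 1 RefSeq promoter sequence, as Vmn1r246 and Vmn1r256 do above, although their start sites lie 1.99 Mb apart. In all, 27 promoter sequences were shared by 66 receptor genes, 52 of them in the cluster. For 12 of the 27 sequences the counts were identical in all members, and for 15 they differed between members. The 66 windows had a median of 3.54 CPM. How reads that match several places were counted is not stated, so the level of any one of these windows is uncertain, and the part of shared sequence in the cluster's higher level was not tested.

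The named windows were the 9 at 5 CPM or more. Olfr1033 (gene ID 258571, chromosome 2, 86020640 to 86044808), a class II olfactory receptor gene, was the highest. Its reads numbered 988 and 736 at 0 h and 872 and 743 at 48 h, or 63.2 and 61.2 CPM against 52.3 and 41.7 CPM. Both 48 h libraries lay below both 0 h libraries. The 7 other receptor windows within 60 kb lay at 1.12 to 1.88 CPM. Olfr1034, whose gene begins 1636 bp away, had 1.39 CPM. The nearest gene that is not a receptor, Fads2b, lies 501705 bp away and had 2.16 CPM.

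Vmn2r9 (gene ID 435864, chromosome 5, 108842947 to 108852510), a V2R pheromone receptor gene, had 231 and 152 reads at 0 h and 348 and 462 at 48 h. These are 14.8 and 12.6 CPM against 20.9 and 25.9 CPM, so the groups did not overlap and 48 h was higher. Its receptor neighbours within 400 kb, Vmn2r8 and Vmn2r10 to Vmn2r14, lay at 1.69 to 3.93 CPM, and Tmed11, the nearest other gene at 47584 bp, had 1.39 CPM. The promoter printed above has 2 CpG dinucleotides, and Vmn2r9 had 0 RNA reads in all 6 RNA libraries.

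Vmn2r29 (gene ID 76229, chromosome 7, 7212996 to 7278289), another V2R gene, had 13.9 and 13.6 CPM at 0 h and 13.2 and 11.5 CPM at 48 h. Unlike the others, it lies between genes with high levels: Zfp772, a zinc finger gene 2998 bp away, had 33.3 CPM, and Clcn4, a chloride and proton exchanger gene 4020 bp away, had 91.0 CPM. Both distances are between the ends of the genes. From start to start, the nearest other gene at 20 CPM or more was Clcn4, 20547 bp from a Vmn2r29 start. Whether reads near Zfp772 or Clcn4 enter the Vmn2r29 window cannot be told, since the windows are not given. Its receptor neighbour Vmn2r30 had 1.91 CPM.

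The remaining 6 windows were lower. Olfr94 (chromosome 17, 37196806 to 37197966) had 7.55 and 6.73 CPM at 0 h and 7.56 and 7.97 CPM at 48 h, while Ubd, a ubiquitin-like gene 705 bp away, had 1.71 CPM. The next receptor, Olfr95, had 3.97 CPM, and Olfr96 and Olfr97 had 1.40 and 1.23 CPM. Olfr617 (chromosome 7, 103584024 to 103584980), a class I gene, had 7.36 and 5.82 CPM at 0 h and 6.36 and 4.55 CPM at 48 h, while its 6 receptor neighbours within 40 kb lay at 1.11 to 1.36 CPM. The last 4 belong to the Vmn1r cluster. Vmn1r158 had 7.16 and 5.57 CPM at 0 h and 3.96 and 4.996 CPM at 48 h, and Vmn1r159 had 6.59 and 5.82 against 4.44 and 3.76 CPM. Vmn1r246 and Vmn1r256 shared the same counts, with 5.63 and 5.57 against 4.50 and 4.38 CPM. In all 4 of these cluster windows both 48 h libraries lay below both 0 h libraries, as in 22.7% of all IDs. Their 48 h means were 4.10 to 4.48 CPM, so they met the limit of 5 CPM only through their 0 h levels. A lower level at 48 h was thus favoured by the rule and is no separate result.

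**Figure D3:**
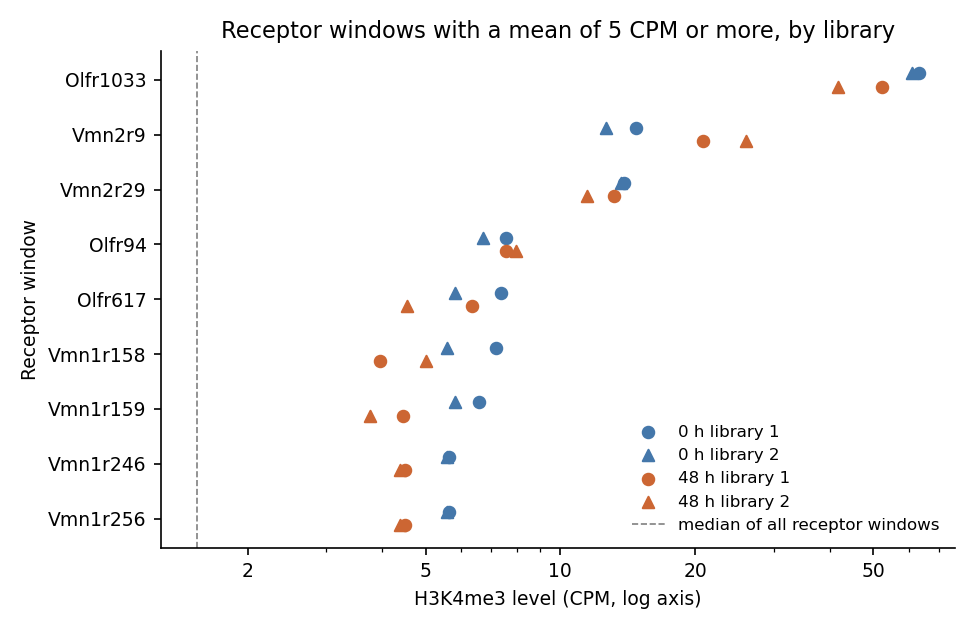
H3K4me3 level (x axis, CPM, log scale) of the 9 receptor windows with a mean of 5 CPM or more (y axis), with 1 point per library, blue for 0 h and orange for 48 h. The dashed line is the median of all receptor windows, 1.54 CPM, and Vmn2r9 is the window where both 48 h libraries lie far above both 0 h libraries.

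The limit of 5 CPM was set by rule and has no natural gap. Just below it were Vmn1r101 and Vmn1r149, with identical counts and 4.87 CPM, Vmn1r160 with 4.82 CPM, the pseudogene Vmn1r-ps79 with 4.63 CPM and Vmn1r148 with 4.57 CPM, all in the same cluster. With 0 h replicate 1 left out, 5 windows reached 5 CPM, and with 48 h replicate 1 left out, 14 did. None of the 1262 receptors with a promoter began within 3 kb of the start of a gene outside the receptor families at 20 CPM or more. Starts of receptor genes such as Olfr1033 were not part of this search. The 7 that began within 10 kb, among them Olfr986 near Zfp202 and Olfr98 near H2-M3, had a median of 1.59 CPM and a maximum of 1.73 CPM.

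At 48 h against 0 h, receptor windows as a group were slightly lower in H3K4me3, and few single windows passed the test. The comparison used edgeR's quasi-likelihood test over the whole table, and a window was called at a Benjamini-Hochberg adjusted p under 0.05 over all gene IDs tested. All 1479 receptor windows passed the low-count filter. Of them 1 was called higher, 15 were called lower and 1463 were not called, while of all 24476 IDs tested 8.42% were called, 6.35% higher and 2.08% lower. The median log2 fold change was -0.29, with 1239 windows (83.8%) below 0, against a median of -0.00 and 50.3% below 0 over all IDs tested.

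Vmn2r9 was the window called higher, from 13.7 ± 1.51 CPM to 23.4 ± 3.57 CPM (SD, n = 2 and 2). Its log2 fold change was 0.76 ± 0.12 (SE) with an edgeR adjusted p of 1.15e-05. It stayed called in all 10 alternative fits, with adjusted p-values up to 0.0308. Olfr1033 was called lower, from 62.2 ± 1.43 to 47.0 ± 7.51 CPM, with a log2 fold change of -0.41 ± 0.08 and an edgeR adjusted p of 4.90e-04. Without 0 h replicate 1 the log2 fold change of Olfr1033 was -0.40 ± 0.12, with an edgeR adjusted p of 0.152. Of the other windows at 5 CPM or more none was called. Vmn2r29 had a log2 fold change of -0.16 (edgeR adjusted p 0.558), Olfr94 0.12 (0.787), Olfr617 -0.29 (0.474), Vmn1r158 -0.52 (0.153), Vmn1r159 -0.60 (0.0845) and the identical pair Vmn1r246 and Vmn1r256 -0.34 (0.418).

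The other 14 lower calls were windows with few reads, at means of 1.14 to 4.38 CPM and log2 fold changes of -1.63 to -0.77. Olfr1000 (chromosome 2, 85607964 to 85608908) had 39 and 19 reads at 0 h and 10 and 13 at 48 h. Its level went from 2.04 to 0.665 CPM, with an edgeR adjusted p of 0.00430. Vmn1r69 (chromosome 7, 10579756 to 10581487) went from 3.50 to 1.64 CPM with an adjusted p of 0.0160, and Olfr606 (chromosome 7, 103451339 to 103452298) from 1.67 to 0.611 CPM with 0.0178. Olfr366 (chromosome 2, 37219491 to 37220420) went from 3.08 to 1.48 CPM with 0.0235, all by edgeR. All 15 lower calls kept a log2 fold change below 0 in each alternative fit, but the number called depended on the libraries used. Without 0 h replicate 1 the edgeR test called 0 of the 1479 windows lower, with 42 lower at an unadjusted p under 0.05, and 10 of the 15 remained without 0 h replicate 2. Leaving out 48 h replicate 1 kept 2 of the 15 and leaving out 48 h replicate 2 kept 3. DESeq2 gave an adjusted p to 75 receptor windows, 2 of the 15 among them, and called 1 lower.

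**Figure D4:**
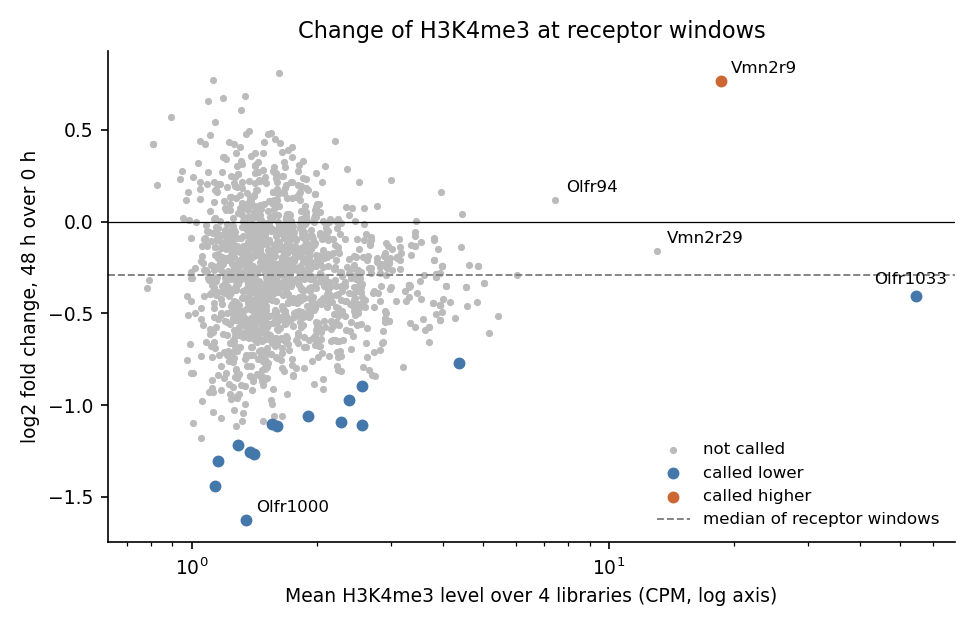
Log2 fold change of H3K4me3, 48 h over 0 h (y axis), against the mean level over 4 libraries (x axis, CPM, log scale) for the 1479 receptor windows, with the 15 windows called lower in blue and the 1 called higher in orange. The cloud is centred on the dashed median of -0.29, and Vmn2r9 and Olfr1033 lie apart from it in level.

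The median was below 0 in each receptor family, in all 22 larger clusters and in other silent windows too. The median log2 fold change was -0.28 in Olfr, -0.34 in Vmn1r and -0.36 in Vmn2r windows, and in the 22 larger clusters it ran from -0.48 to -0.18. Of Olfr windows 0 were called higher by edgeR (1 at an unadjusted p under 0.05, 0 by DESeq2) and 11 lower. Of Vmn1r windows 0 were called higher (0 at an unadjusted p under 0.05, 0 by DESeq2) and 3 lower, and of Vmn2r windows 1 was called each way. The shares called by edgeR were 0.982% of Olfr, 1.29% of Vmn1r and 1.57% of Vmn2r windows. Of all IDs tested, 6.35% were called higher and 2.08% lower. Taste receptors had a median of -0.23, trace amine receptors -0.30, keratin-associated proteins -0.25 and beta-defensins -0.23. Over the other RNA-silent IDs the median was -0.17, with 68.8% below 0. At the same level of 1 to 2 CPM, 1134 receptor windows had a median of -0.27 with 81.9% below 0, and 5611 other windows had -0.19 with 70.8% below 0. Of these receptor windows edgeR called 0 higher (1 at an unadjusted p under 0.05, 0 by DESeq2) and 9 lower, or 0.794%. Of the 5611 other windows it called 1 higher and 13 lower, or 0.250%.

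By library, receptor windows held 50211 and 32057 reads at 0 h, or 0.332% (95% exact Clopper-Pearson interval 0.329% to 0.335%) and 0.267% (0.264% to 0.270%) of all counts. At 48 h they held 40218 and 43116 reads, or 0.235% (0.232% to 0.237%) and 0.240% (0.238% to 0.242%). The intervals cover counting error only. Both 48 h libraries lay below both 0 h libraries, but the 0 h libraries differed more from each other than 0 h replicate 2 did from either 48 h library. Summed receptor CPM was 2938 ± 387 at 0 h and 2417 ± 5.005 at 48 h (SD, n = 2 and 2), a ratio of 0.823. The summed CPM of the other RNA-silent windows was 26181 ± 584 at 0 h and 27050 ± 1872 at 48 h, a ratio of 1.03. That sum includes 469 windows at 5 CPM or more, up to 1895 CPM, so it is not a sum of low windows alone. Without 0 h replicate 1 the receptor ratio was 0.894, and the median log2 fold change of receptor windows was -0.15. The median receptor window had 1.85 and 1.58 CPM at 0 h and 1.5002 and 1.40 CPM at 48 h, and the median of the other RNA-silent windows moved with it, at 1.85 and 1.58 against 1.56 and 1.40 CPM. The part of library background in the shift was not tested. Window by window, 570 receptors (38.5%) had both 48 h libraries below both 0 h libraries and 49 had both above, while over all IDs 22.7% were below and 26.4% above.

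RNA from the receptor genes was close to nil. Of the 1478 receptor genes in the RNA table, 1395 (94.4%) had 0 reads in all 6 libraries, against 16.5% of the other IDs. With 104054357 counts in all, 0 reads allows a level of up to 0.0288 CPM, by the limit of 3 counts. Receptor reads numbered 349 to 730 per library, or 0.00277% to 0.00359% of its counts. Of the 83 genes with any read, 60 had 1 to 3 reads over all libraries, 10 had 4 to 20 and 13 had over 20. Olfr1033 alone gave 71.1% of the 3101 receptor reads. In 7 of the 9 windows at 5 CPM or more of H3K4me3 the gene had 0 RNA reads, and the other two were Olfr1033 and Vmn2r29. The other 11 genes with over 20 RNA reads lay at 1.001 to 2.03 CPM of H3K4me3.

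The low-count filter in RNA was passed by 5 receptor genes, and the rest were not tested in that fit. Of these 5, edgeR called 1 higher and 1 lower at 48 h, while over the 14401 IDs tested 31.8% were called, 16.0% higher and 15.8% lower. Olfr1033 had 338, 437 and 335 reads at 0 h and 295, 548 and 251 at 48 h. Its RNA level was 20.3 ± 2.30 and 22.1 ± 0.423 CPM (SD, n = 3 and 3), and its log2 fold change was 0.12 ± 0.11 (SE; edgeR adjusted p 0.428), beside the lower H3K4me3 level at 48 h given above. Its neighbour Olfr1034 had 14, 45 and 21 reads at 0 h and 16, 35 and 33 at 48 h, with overlapping groups and an edgeR adjusted p of 0.612. Use of strand in the counting is not stated, so reads of close or overlapping genes may not be told apart.

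Vmn2r29 was the gene called lower in RNA. It had 19, 47 and 32 reads at 0 h and 7, 18 and 5 at 48 h, or 1.74 ± 0.553 and 0.564 ± 0.144 CPM (SD, n = 3 and 3). Every 48 h library lay below every 0 h library, and the log2 fold change was -1.57 ± 0.37 (SE) with an edgeR adjusted p of 0.0127. The share of all RNA IDs without overlap is not given here, so such a split is description only, also for Olfr1251 below. Leaving out 0 h replicate 2 gave a log2 fold change of -1.29 (edgeR adjusted p 0.0518), and leaving out 48 h replicate 3 gave -1.43 (0.0567). Olfr976 had 13, 23 and 20 reads at 0 h and 12, 7 and 4 at 48 h, with a log2 fold change of -1.04 and an edgeR adjusted p of 0.126. In bulk samples such as these, fewer cells of a type and less RNA per cell cannot be told apart.

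Olfr1251 (chromosome 2, 89666928 to 89667884) was the gene called higher in RNA. It had 3, 11 and 5 reads at 0 h and 12, 35 and 11 at 48 h, or 0.333 ± 0.185 and 1.09 ± 0.267 CPM (SD, n = 3 and 3), with every 48 h library above every 0 h library in CPM. The log2 fold change was 1.69 ± 0.44 (SE) with an edgeR adjusted p of 0.0201. Leaving out 0 h replicate 1 gave a log2 fold change of 1.45 (edgeR adjusted p 0.0550), 0 h replicate 3 gave 1.55 (0.0826) and 48 h replicate 2 gave 1.45 (0.0915). Its nearest receptor neighbour, Olfr1250, which lies 9489 bp away and did not pass the filter, had 4 reads at 0 h and 20 at 48 h. Both windows were at the usual receptor level of H3K4me3, with 1.51 CPM at Olfr1251 and 1.605 CPM at Olfr1250.

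**Figure D5:**
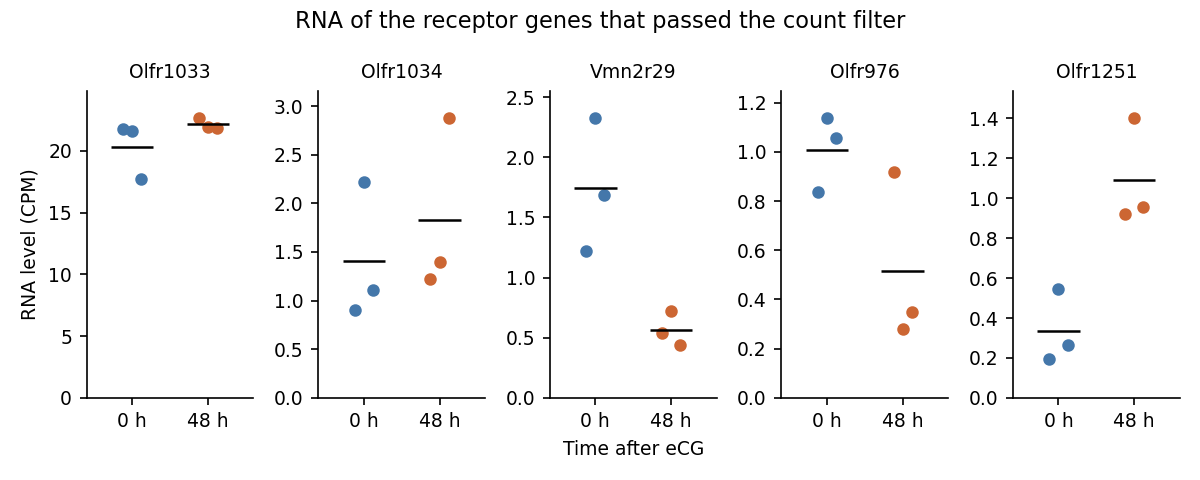
RNA level (y axis, CPM, a separate scale from 0 in each panel) at 0 h and 48 h for the 5 receptor genes that passed the count filter, with 1 point per library and the group mean as a line. The groups do not overlap in Vmn2r29, which is lower at 48 h, and in Olfr1251, which is higher.

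The remaining receptor genes with most RNA were Olfr920 with 40 reads over 6 libraries, Vmn2r57 with 35, the pseudogene Olfr1372-ps1 with 33, Olfr558 and Olfr824 with 31 each, Vmn2r87 with 30, Vmn2r1, a V2R family member that vomeronasal neurons express together with other V2Rs, with 29, Olfr330 with 17 and Olfr315 with 15. The 15 reads of Olfr315 came from 2 of the 3 libraries at 48 h. Olfr329, named after its values were seen, also had 15 reads, with 2, 7 and 5 at 0 h and 0, 1 and 0 at 48 h. With no low-count filter, edgeR called Olfr315 higher (adjusted p 0.0363) and Olfr329 lower (0.0410). Among receptors known to act outside the nose, Olfr558 had 2, 1 and 7 reads at 0 h and 14, 2 and 5 at 48 h, and Olfr78, a receptor of blood vessels and the carotid body, had 3 reads in all. Olfr16, known from sperm and muscle, had 0. In H3K4me3 their windows had 1.29, 1.14 and 1.70 CPM, and none was called (edgeR adjusted p 0.380, 0.859 and 0.964).

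Genes that act with these receptors in the nose were listed beside them. Of 16 signal transduction genes, 9 passed the RNA filter, 2 rose, 0 fell by edgeR (0 at an unadjusted p under 0.05, 0 by DESeq2) and 7 were not called, where 16.0% of all IDs tested rose. DESeq2 called 3 of the 9 higher. Those that rose by edgeR also act in many other tissues: Adcy3, adenylyl cyclase 3, from 66.7 ± 4.65 to 99.5 ± 12.9 CPM (log2 fold change 0.58), and Gnai2, an inhibitory G protein subunit of V1R neurons, from 243 ± 7.52 to 333 ± 16.2 CPM (0.45). The median log2 fold change of the 9 was 0.21, against -0.03 over all IDs tested. In H3K4me3, 1 of the 16 rose, Gnao1, the G protein subunit of V2R neurons, from 33.4 to 42.4 CPM (edgeR adjusted p 0.00389), where 6.35% of all IDs were called higher. DESeq2 called 0 of the 16. Of 4 receptor trafficking genes, 2 passed the RNA filter and Reep1 rose, from 15.4 ± 0.961 to 26.7 ± 0.424 CPM (log2 fold change 0.79, edgeR adjusted p 8.20e-04), while the receptor chaperone genes Rtp1 and Rtp2 had 2 and 0 reads in all libraries.

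Of 21 genes for receptor choice and silencing, 18 passed the RNA filter, 2 rose, 7 fell and 9 were not called, with a median log2 fold change of -0.06. DESeq2 called 2 higher and 7 lower. Of all IDs tested in RNA, 16.0% rose and 15.8% fell. Lbr, the lamin B receptor whose loss favours the rod-cell and olfactory-neuron type of nuclear architecture, rose from 64.8 ± 5.77 to 115 ± 14.1 CPM (0.83). Eif2ak3, the unfolded-protein kinase PERK that acts in receptor feedback, rose from 68.6 ± 4.97 to 97.7 ± 6.45 CPM (0.51). Those that fell were the homeobox gene Emx2 (log2 fold change -0.77), Ebf4 (-0.72), the LIM cofactor Ldb1 (-0.57) and 4 histone methyltransferase genes: Setdb1 (-0.39), Kmt5c (-0.36), Ehmt2 (-0.28) and Ehmt1 (-0.25). In H3K4me3, 5 of the 21 rose, Ebf2, Ebf3, Ebf4, Kmt5b and Lbr, and 0 fell by edgeR (0 at an unadjusted p under 0.05, 0 by DESeq2). DESeq2 called 1 of the 21 higher, and by edgeR 6.35% of all IDs were called higher. Ebf4, a factor of the EBF family of olfactory neurons, rose in H3K4me3 from 37.6 to 56.2 CPM (edgeR adjusted p 1.49e-06) while its RNA fell from 34.7 ± 6.17 to 21.1 ± 2.92 CPM.

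Markers of the cells that use these receptors were low in RNA. The 7 olfactory neuron markers together had 8.07 to 8.75 CPM of RNA at 0 h and 5.14 to 8.66 CPM at 48 h. Of these markers 4 passed the filter and 0 were called by edgeR (1 at an unadjusted p under 0.05, 0 by DESeq2). Omp, the olfactory marker protein, had 87 reads over all libraries, Cnga2, the olfactory channel subunit, 23, Cngb1, another channel subunit, 276, and the G protein subunit genes Gng13 and Gnal 224 and 177. The 4 vomeronasal neuron markers together had 17.7 to 21.1 CPM at 0 h and 19.9 to 31.0 CPM at 48 h, of which Gnao1, also expressed in other tissues, gave 18.4 and 22.5 CPM on average. Of these 4 markers 2 passed the filter and 0 were called by edgeR (1 at an unadjusted p under 0.05, 0 by DESeq2), while Trpc2, the vomeronasal channel, had 0 reads. The 8 granulosa markers had 15092 to 18676 CPM at 0 h and 28939 to 31695 CPM at 48 h, far above those of the neurons. Inha, which rose from 8181 to 16849 CPM, gave the largest part of that sum. By edgeR 5 of the 8 rose, 1 fell and 2 were not called. The marker that fell was Amh, from 901 to 346 CPM. Markers of other ovarian cells also moved between the times at which the receptor RNA was compared. The 5 endothelial markers went from 73.8 to 78.1 CPM at 0 h to 148 to 444 CPM at 48 h and all 5 rose. The 8 oocyte markers went from 85.6 to 96.1 CPM to 35.0 to 91.3 CPM and 3 fell. Theca markers went from 3150 to 4736 CPM to 7489 to 8653 CPM (1 of 5 rose, 1 fell). The steroid enzyme gene Hsd3b1, which rose from 2807 to 7024 CPM, carried most of that sum, Gli1 fell with a log2 fold change of -1.52, and Cyp17a1, the androgen-forming enzyme gene, had 809 and 825 CPM and was not called. Immune markers were at 62.0 to 130 CPM and 58.7 to 113 CPM (0 of 5 tested called by edgeR, 0 at an unadjusted p under 0.05, 0 by DESeq2). Their part in the RNA results for Vmn2r29 and Olfr1251 was not tested.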

How the data were processed

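The deposited tables hold whole-number raw counts for each gene ID, from 4 H3K4me3 and 6 RNA libraries. For the ChIP libraries the submitters' processing notes name ChIPseeker 1.18.0, MACS2 2.2, Bowtie2 2.2.9 and Trimmomatic, for RNA they name STAR, kallisto, sleuth, Picard and FastQC 0.11.5, and for both build mm10. Which step made the counts, which window was counted and what became of reads with several matches are not stated. H3K4me3 columns were tied to a group by name, and their replicate number is the one that ends the column name. H3K4me3 totals were 11989769 to 17968033 counts and RNA totals 12013849 to 26343971.

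Symbols, coordinates and promoters came from RefSeq (GRCm38.p6). In RNA, 1478 of the 1479 receptors had a row, all but Vmn2r122. CPM was computed with TMM scaling. Each assay was fitted over all gene IDs with edgeR 4.0.16 (R 4.3.3; quasi-likelihood test, filterByExpr, Benjamini-Hochberg, called at an adjusted p under 0.05). SEs and p-values use variation shared across genes. DESeq2 1.42.0, other scalings, no filter, replicate blocks and leaving out each library were alternatives. The members, lists and rules were chosen with earlier results of these data known. Named were windows of 5 CPM or more, the next 5 below, up to 5 called per direction by p, up to 15 genes by RNA level, and Olfr78, Olfr558 and Olfr16. On simulated data at the H3K4me3 library sizes (24471 genes tested), 86% of genes changed by a log2 of 1 and 99% of those changed by 2 were recovered. For RNA (14457 genes tested) 97% and 100% were. The changed genes were drawn only from those above a minimum mean count, and all genes were given the same spread between libraries. These shares therefore do not give the recovery for receptor windows or genes with few reads. Replicates differed by more than sampling noise in each group, with a chi-square per degree of freedom of 1.69 or more, and each library was counted once.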

Additional observations from a re-analysis of the deposited data

How the results depend on the processing

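The count of receptor windows called lower in H3K4me3 (15) depended on the processing. It was 23 with DESeq2 size factors, 1 with the DESeq2 test and 0 to 26 when each library was left out in turn. The count called higher was 1 throughout. The number of windows at 5 CPM or more (9) ranged from 5 to 14 and the median log2 fold change (-0.29) from -0.41 to -0.15 when each library was left out in turn. In RNA, the count called higher was 2 with no low-count filter (Olfr315 added) and 0 to 1 without single libraries, and the count called lower was 2 with no filter (Olfr329 added) and 0 to 2 without single libraries. Olfr976 was called lower without RNA 48 h replicate 1 (adjusted p 0.0165). No called value changed sign. The cause of these changes was not tested. Library-size scaling moved the median of all RNA log2 fold changes to -0.20 from -0.03. Many of the alternative values for single windows and genes were for members not called in the main fit. Windows with identical counts entered separately, and DESeq2 values without an adjusted p were left out. Of the values counted, 231 kept their direction and side of the threshold, 17 lost the call and 3 gained it. Another 7, not called in either fit, changed sign. They were log2 fold changes at Olfr16 in H3K4me3 (0.04), which was -0.011 with library-size scaling and -0.19 to 0.37 when each library was left out in turn, at Olfr78 in H3K4me3 (-0.18), with -0.74 to 0.24 over the left-out libraries, in RNA of Olfr1033 (0.12), with -0.049 under library-size scaling, and in RNA of Olfr1034 (0.33), with -0.090 to 0.83 over the left-out libraries.

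Same-numbered libraries did not deviate together (correlation -0.374 in H3K4me3 and -0.247 to -0.134 in RNA), so the numbers were not taken to pair samples. In H3K4me3 the libraries with crossed numbers had a correlation of 0.374. With 2 libraries per group this value must be the opposite of the first and is no separate result. With the replicate number as a block, 18 receptor windows were called lower and 1 higher in H3K4me3, and 1 gene each way in RNA. With the pairing crossed, an alternative chosen after seeing the data, 29 windows were called lower and 1 higher. The median receptor window held 19 to 29 reads per library.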
